A study of Mus musculus with 2 samples.

Results

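*Pcp4*, *Pcp2*, *Pgc*, *Samsn1*, *Ffar4*, *Hsbp1l1* and *Tmem215* were 7 of the 28692 genes counted in single cells of the *LHX4::GFP* mouse retina at embryonic day E14.5. They were chosen by measured values, from among the highest ratios of summed UMIs per 1000000 UMIs (CPM) between the GFP+ and the GFP− gate, as genes that are not known for a role in cones. Their gate ratios are therefore given as a description, with no test. *LHX4::GFP* is a transgene on a bacterial artificial chromosome (strain Tg(Lhx4::EGFP)KN199Gsat/Mmucd) whose *Lhx4* regulatory region drives EGFP, and the cells of both gates came from retinas that carry it. Embryos of 2 litters were pooled in a single suspension before the sort, and each gate gave 1 droplet library of 3′ transcript ends, labelled as cone photoreceptors for GFP+ and as retinal cells for GFP−. In this assay each captured molecule carries a unique molecular identifier (UMI), so copies made by PCR count once. With 1 library per gate there is no replicate check, all intervals are 95% exact intervals that cover counting error only, and a difference between gates cannot be told apart from a difference between those libraries.

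Cones are the photoreceptors of daylight vision and are among the first neurons to leave the cell cycle in the mouse retina. They arise from progenitors that switch on *Otx2*, and young cones express *Thrb* and *Rxrg*, nuclear receptors that regulate opsin choice, together with genes of the light response such as *Gngt2* and *Gnb3*, the cone transducin gamma and beta subunits. *Fabp7* encodes a fatty acid binding protein best known from neural progenitors and glia. The 7 genes are known mainly from other tissues. *Pcp4* and *Pcp2* are named for Purkinje cells, where the former takes part in calcium signalling and the latter binds inhibitory G protein alpha subunits. *Pgc* encodes the gastric protease precursor progastricsin, *Samsn1* an adaptor protein of lymphocytes, *Ffar4* a receptor for long-chain fatty acids, *Hsbp1l1* a relative of a heat shock factor binding protein, and *Tmem215* a membrane protein.

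In the kept cells, those with 250 to under 3500 genes and a mitochondrial fraction under 0.25, the GFP+ library held 15503658 UMIs in 3689 cells (median 3894 per cell) and the GFP− library 30094636 UMIs in 3389 cells (median 8848). Before this filter they held 16010591 UMIs in 3728 cells and 46778924 UMIs in 4445 cells. The filter thus took far more from the GFP− library. Because depth differed between gates, shares of cells were taken after each cell was thinned at random to 3200 UMIs, which left 3110 GFP+ and 3361 GFP− cells and left out 579 and 28 shallower ones. The libraries shared 20 cell barcodes. Markers went with the cone label. Of the 3689 GFP+ cells, 3613 held more photoreceptor markers than markers of any other class, with at least 2 present. In the GFP− library 68 of 3389 cells did, while 1995 were progenitor-marker cells. Of 7 immune markers, *Ptprc*, *Csf1r*, *C1qb* and *Aif1* were at 0 in the GFP+ cells, while *C1qa* had 413 UMIs and *Coro1a* 31. Of 7 bipolar markers, *Vsx1* was at 0, and *Cabp5* had 75 UMIs and *Prkca* a ratio of 1.42 between the gates. The rod genes *Gngt1* and *Nrl* had 640 and 478 UMIs there.

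Every one of the 7 genes was rare in the GFP− library. *Pcp4* had 1624 UMIs in GFP+ cells, or 105 CPM, and 6 UMIs in GFP− cells, or 0.199 CPM, a ratio of 525 (241 to 1434). For *Pgc* the values were 326 and 0.831 CPM, a ratio of 392 (265 to 606). *Samsn1* stood at 241 and 0.831 CPM, a ratio of 290 (196 to 449). These 3 genes lay at ranks 5, 8 and 12 of 8526 genes with at least 10 CPM in GFP+ cells. *Ffar4*, *Hsbp1l1*, *Tmem215* and *Pcp2* lay at ranks 14, 16, 17 and 31. *Ffar4* had 73.5 and 0.299 CPM, a ratio of 246 (129 to 539). *Hsbp1l1* had 57.3 and 0.266 CPM, a ratio of 216 (109 to 501). *Tmem215* had 192 and 0.930 CPM, a ratio of 206 (142 to 311). *Pcp2* had 89.3 and 0.631 CPM, a ratio of 141 (90.3 to 236). The interval of *Pcp2* lay below those of *Pcp4* and *Pgc*. All other pairs of intervals overlapped. Overlap alone does not decide whether ratios differ, and the rest of the order was not tested. Over all barcodes *Pcp4* had a ratio of 300 and *Pgc* of 533. All 7 passed a 20-fold ratio, as the choice of genes required, and 1.84% of the 15236 genes compared did.

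Known cone genes and genes not chosen were interleaved with them. Among the latter, *Podn*, *Ano5* and *Asic3* lay at ranks 4, 7 and 11, above some of the 7 genes. *Opn1sw*, the short-wavelength cone opsin, had 228 UMIs in GFP+ cells and 0 in GFP− cells, at least 148-fold higher when 3 counts are taken as the floor. *Pde6c*, the cone phosphodiesterase, ranked just above *Pcp4* with *Podn*, at 411 UMIs against 1 and a ratio of 798 (142 to 31587). *Gngt2* ranked between *Ffar4* and *Hsbp1l1* with a ratio of 225 (199 to 256). The gene just outside the lowest of the 7, *Gnb3*, had a ratio of 134 (113 to 160) against 141 for *Pcp2*.

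**Figure D1:**
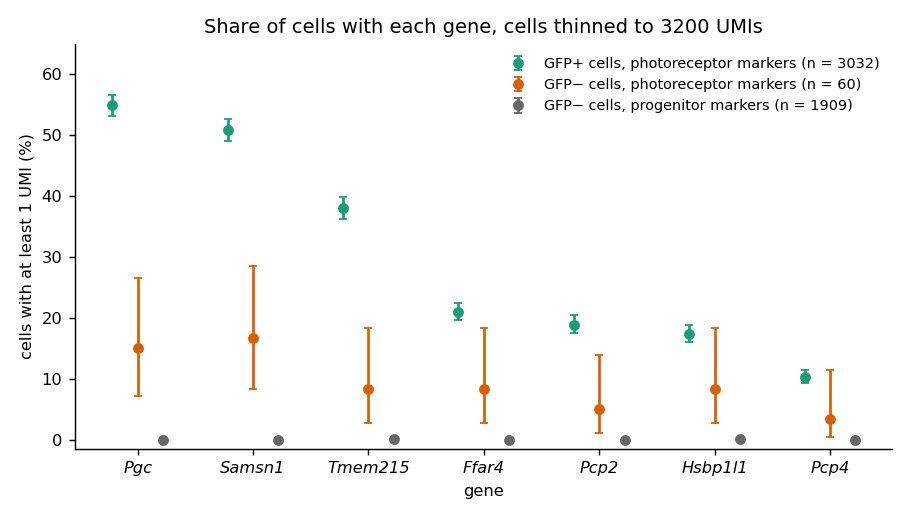
Percentage of cells with at least 1 UMI of each gene (y axis) after thinning to 3200 UMIs, for GFP+ cells with photoreceptor markers, GFP− cells with photoreceptor markers and GFP− cells with progenitor markers, with 95% exact binomial intervals. In GFP+ cells the share runs from 54.9% for *Pgc* to 10.3% for *Pcp4*, while it is at most 0.157% in the GFP− progenitor-marker cells.

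Within the GFP+ gate the 7 genes differed in how many cells held them. *Pgc* was found in 53.7% of the 3110 thinned cells (52.0 to 55.5) and *Samsn1* in 49.8% (48.1 to 51.6). *Tmem215* followed with 37.2% (35.5 to 38.9). *Ffar4* at 20.6% (19.2 to 22.1), *Pcp2* at 18.6% (17.2 to 20) and *Hsbp1l1* at 17.0% (15.7 to 18.4) formed a lower group in which neighbouring intervals overlapped. The lowest share belonged to *Pcp4*, at 10.1% (9.03 to 11.2). At least 1 of the 7 genes was found in 2711 of the 3110 cells (87.2%), 3 or more in 1156 (37.2%), all 7 in 1 cell, and none in 399. Since a thinned cell holds only 3200 UMIs, a cell without a UMI of a gene need not lack its transcript.

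*Pcp4* was concentrated in few cells. Its detected cells held 3.57 UMIs on average and up to 29 in a thinned cell, against averages of 1.15 for *Hsbp1l1* to 2.03 for *Pgc*. The variance of *Pcp4* UMIs over cells was 7.63 times the mean, and for the other 6 genes it was 1.09 times (*Hsbp1l1*) to 1.87 times (*Pcp2*). If *Pcp4* UMIs had fallen on cells at random, 30.2% of cells would have had one, compared with the 10.1% found. The 32 cells with the most *Pcp4* UMIs, 1% of all, held 37.7% of them. For *Hsbp1l1* and *Ffar4* the random share, 17.7% and 22.2%, was close to the 17.0% and 20.6% found.

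**Figure D2:**
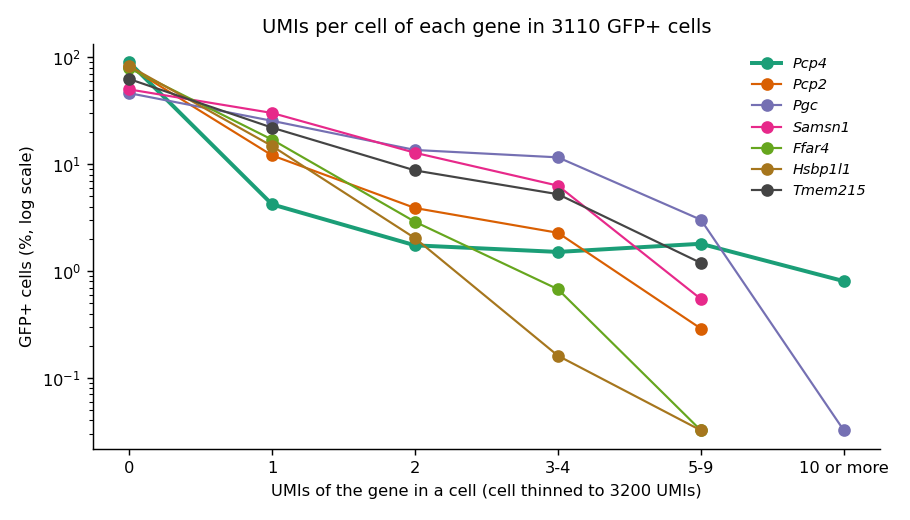
Percentage of the 3110 thinned GFP+ cells (log scale) by the number of UMIs of each gene in the cell; a point is left out where no cell falls in the range. The ranges widen to the right, so a level line is a fall per UMI value. *Pcp4* has 1.74% of cells at 2 UMIs, 1.51% at 3 to 4 and 1.80% at 5 to 9. It has 0.804% of cells at 10 or more, where *Pgc* has 0.0322% and the other 5 genes have none.

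Promoter sequences, 250 bases before to 50 after a start site, were read from RefSeq (GRCm38.p6) for 6 of the 7 genes, and those of *Samsn1*, *Pcp2*, *Pgc* and *Tmem215* are shown because these genes recur among the pairs found in the same cells in every setting. They were searched on both strands for 4 short motifs. TAATCC, the core bound by CRX and OTX2, was in 7.06% of 32851 mouse promoters of this length. It was in none of the windows of *Pcp4*, *Pcp2*, *Pgc*, *Samsn1*, *Ffar4* and *Tmem215*. TAATTA, a core bound by LIM and other homeodomain proteins, was in 5.29% of all promoters. It lay in the *Samsn1* window, at 224 and 140 bases before the start site, and in 1 of the 4 *Pcp2* windows, at 101 bases before it. AGGTCA, a nuclear receptor site, was in 16.3% of all promoters. It lay in the *Pcp4* window and in the *Pcp2* windows other than the one printed below. The E-box CANNTG was in 72.3% of all promoters. TAATTA reads the same on both strands and shares its first 4 letters with TAATCC. A match describes the letters of these windows only, and capitals mark TAATTA.
*Samsn1*, chr16:75909217-75909516, minus strand: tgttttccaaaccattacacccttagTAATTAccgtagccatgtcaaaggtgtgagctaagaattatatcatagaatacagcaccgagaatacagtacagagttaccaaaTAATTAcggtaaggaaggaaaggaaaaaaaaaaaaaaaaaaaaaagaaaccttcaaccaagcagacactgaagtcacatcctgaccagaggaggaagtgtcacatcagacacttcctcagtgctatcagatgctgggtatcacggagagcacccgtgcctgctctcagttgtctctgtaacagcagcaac
*Pcp2* (the start site with the match), chr8:3625233-3625532, minus strand: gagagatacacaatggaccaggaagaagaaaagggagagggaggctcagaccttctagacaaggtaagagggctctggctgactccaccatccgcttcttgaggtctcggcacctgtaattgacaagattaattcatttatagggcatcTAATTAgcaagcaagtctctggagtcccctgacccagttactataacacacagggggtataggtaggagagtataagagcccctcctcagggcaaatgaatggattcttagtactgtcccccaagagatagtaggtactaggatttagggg
*Pgc*, chr17:47726592-47726891, plus strand: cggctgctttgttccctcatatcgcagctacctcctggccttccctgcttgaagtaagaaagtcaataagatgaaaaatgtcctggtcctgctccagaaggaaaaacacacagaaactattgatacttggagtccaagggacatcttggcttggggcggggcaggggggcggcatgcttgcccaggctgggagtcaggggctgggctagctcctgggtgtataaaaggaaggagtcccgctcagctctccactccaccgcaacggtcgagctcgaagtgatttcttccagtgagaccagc
*Tmem215* (the upstream start site), chr4:40471930-40472229, plus strand: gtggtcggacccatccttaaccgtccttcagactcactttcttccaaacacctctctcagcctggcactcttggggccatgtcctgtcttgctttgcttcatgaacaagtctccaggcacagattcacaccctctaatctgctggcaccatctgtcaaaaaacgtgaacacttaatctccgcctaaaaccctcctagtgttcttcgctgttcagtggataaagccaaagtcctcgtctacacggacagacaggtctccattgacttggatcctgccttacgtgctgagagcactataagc

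The 7 genes tended to occur in the same GFP+ cells. Among their 21 pairs the odds ratio of co-detection, the odds of finding one gene in cells with the other over those in cells without it, had a median of 1.41 and ran from 0.712 to 2.33. It was 1.2 or more in 17 pairs, compared with 7.25% of 8551180 pairs of the 4136 genes found in a similar share of cells (10.1% to 53.7%), whose median was 1.01. In 17 pairs the interval lay above 1 and in 0 below 1. This count depended on which UMIs the thinning drew. It was 13 with another random draw and 11 when cells were thinned to 2000 UMIs, and 8 of the 21 pairs lay above 1 in all 7 settings tried. The median odds ratio was 1.30 with the other draw and 1.26 at 2000 UMIs, and 1.41 was the highest median of the 7 settings. The background pairs were computed in the first draw only. Among the 2982 photoreceptor-marker cells alone, 13 pairs lay above 1 and 1 below, with a median of 1.35. All 7 genes were chosen for the same gate contrast, whereas the background pairs were matched on the share of cells only. Outside the set, *Rbp4* and *Pde6c*, which have high gate ratios, also went with *Ffar4*, at 1.96 (1.63 to 2.35) and 1.55 (1.13 to 2.09). They were compared as genome neighbours of *Ffar4*, after seeing the data, so they do not stand for genes of high gate ratio in general. Whether the 7 genes go together more than other genes of high gate ratio was not tested.

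The closest pair was *Pcp2* and *Pgc*. *Pgc* was found in 70% of cells with *Pcp2* (66.1 to 73.7) and in 50% of cells without it (48.1 to 52.0), an odds ratio of 2.33 (1.91 to 2.85), and it stayed between 1.96 and 2.54 in the 7 settings. *Pgc* and *Tmem215* followed with 1.75 (1.51 to 2.04), then *Pcp2* and *Tmem215* and *Pgc* and *Hsbp1l1* with 1.65 each. *Pcp4* stood apart again. Its odds ratio was 1.52 (1.2 to 1.94) with *Tmem215* and 1.39 (1.09 to 1.77) with *Samsn1*. With *Pcp2* it was 0.907 (0.653 to 1.24), with *Pgc* 1.14 (0.891 to 1.45), with *Ffar4* 1.15 (0.853 to 1.53) and with *Hsbp1l1* 0.712 (0.492 to 1.01). For these last 4 pairs the interval did not lie above 1 in any of the 7 settings.

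**Figure D3:**
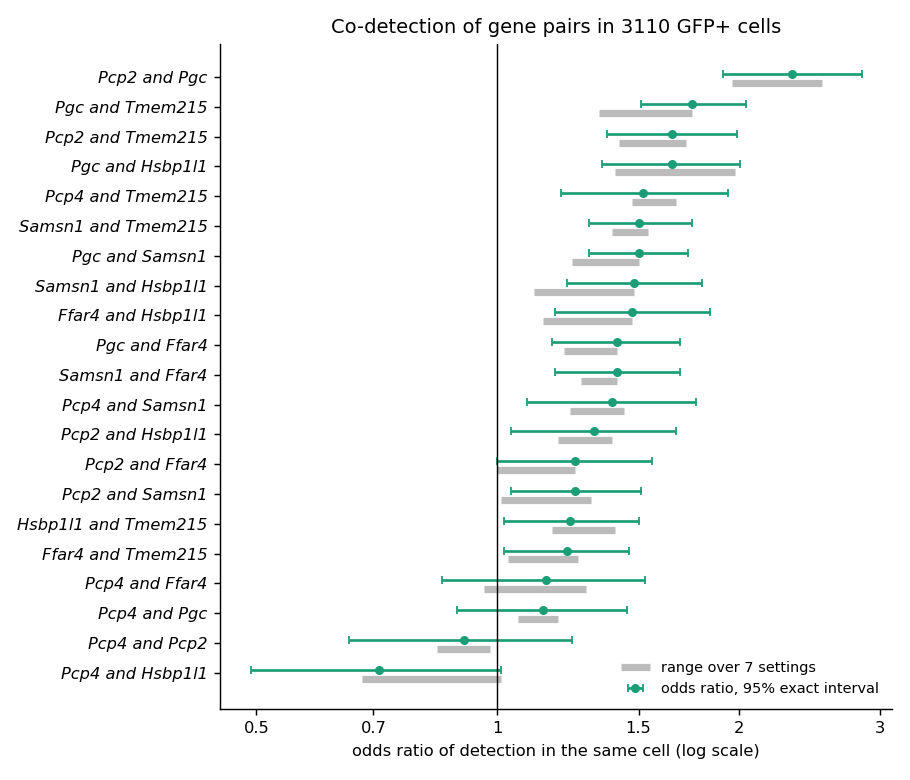
Odds ratio of co-detection (log scale) for the 21 pairs of genes in 3110 thinned GFP+ cells, with its 95% exact interval in green and the range of the odds ratio over 7 settings in grey. *Pcp2* and *Pgc* lie highest at 2.33, and the 4 lowest pairs all include *Pcp4*.

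*Gngt2*, itself found in 94% of the thinned GFP+ cells, ordered the cells by a known cone gene. It had a median of 5 UMIs, with 1548 cells above it and 1562 at or below. *Tmem215* was in 43.2% of the former (40.7 to 45.7) and 31.2% of the latter (28.9 to 33.6), an odds ratio of 1.67 (1.44 to 1.94). For *Pgc* the shares were 59.8% and 47.8%, an odds ratio of 1.62 (1.41 to 1.88). *Samsn1* followed with 1.48 (1.28 to 1.70), *Ffar4* with 1.41 (1.18 to 1.69), *Hsbp1l1* with 1.37 (1.13 to 1.66) and *Pcp2* with 1.22 (1.02 to 1.47). For *Pcp4* the shares were 10.5% and 9.60%, an odds ratio of 1.11 (0.871 to 1.41) whose interval includes 1. The *Pcp2* interval included 1 without thinning, at 1.15 (0.983 to 1.35), over all barcodes, at 2000 UMIs and without possible doublets, and the *Hsbp1l1* interval in the last 2 of these settings. Among genes of the same light response pathway, *Gnb3* and *Pdc* had odds ratios of 2.30 and 2.23, *Pde6c* 1.56, *Cnga3* 1.47, *Cngb3* 1.28 and *Gnat2* 1.27. *Prdm1*, a regulator of early photoreceptors, had 0.994 (0.857 to 1.15).

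Over ranges of *Gngt2* UMIs the largest step lay between cells with 0 and cells with 1 or 2. The cells with 0 were only 187 of the 1562 at or below the median, and they differed in other genes too. The progenitor marker *Ccnd1* was in 15.5% of them and in 3.62% of cells with 1 or 2 *Gngt2* UMIs, and *Otx2* in 83.4% and 97.1%. The ranges were not repeated in photoreceptor-marker cells, so the part of other cell types in this step was not tested. *Pgc* was in 23.5% of the 187 cells with 0 *Gngt2* UMIs, 47.3% of the 442 cells with 1 or 2, and 61.5% of the 662 cells with 10 or more. *Samsn1* went from 20.3% to 45.5% and 55.6%. *Tmem215* kept rising over the range, from 12.3% to 27.8%, 36.7%, 39.4% and 48.2%. *Pcp2* was at 4.81% with 0 *Gngt2* UMIs and between 16.7% and 20.2% in all other ranges. In the 2982 cells with photoreceptor markers other than *Gngt2*, the odds ratios of *Pcp2* and *Hsbp1l1* were 1.05 (0.867 to 1.27) and 1.13 (0.930 to 1.37), and 4 genes in place of 6 had an interval above 1. How many of all genes have such an interval by *Gngt2* was not computed, so these counts cannot be called particular to the 7 genes. In CPM, 1 of the 7 genes was 1.5-fold or more higher above the *Gngt2* median, *Tmem215* at 1.5 (1.37 to 1.64), and 0 were 1.5-fold or more lower. Of the 6410 genes compared, 0.640% were higher by that much and 0.359% lower.

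*Fabp7* ran the other way. It was found in 1199 of the 3110 thinned cells. *Tmem215* was in 28.2% of cells with *Fabp7* (25.7 to 30.8) and in 42.8% of cells without it (40.6 to 45.1), an odds ratio of 0.525 (0.448 to 0.614). *Samsn1* had 42.8% and 54.3%, an odds ratio of 0.630 (0.543 to 0.731), and *Pcp4* 7.67% and 11.6%, an odds ratio of 0.636 (0.487 to 0.824). Smaller gaps were found for *Ffar4* at 0.723 (0.598 to 0.872), *Pgc* at 0.790 (0.682 to 0.916) and *Hsbp1l1* at 0.804 (0.657 to 0.982). *Pcp2* had 0.838 (0.690 to 1.02), an interval that includes 1. The smaller gaps depended on the setting. *Hsbp1l1* had an interval that includes 1 without thinning, at 0.909 (0.768 to 1.07), at 2000 UMIs and with another draw, and *Ffar4* without thinning, at 0.877 (0.750 to 1.03), and at 2000 UMIs. *Pcp2* had an interval below 1 over all barcodes, at 0.751 (0.617 to 0.913), without possible doublets, at 2000 UMIs and with another draw. Taking CPM, 0 of the 7 genes were 1.5-fold or more higher or lower with *Fabp7*, with *Tmem215* nearest at a ratio of 0.677, while 0.515% of the 6410 genes were higher and 1.26% lower. *Atoh7*, a gene of newly formed neurons, was the more frequent with *Fabp7*, with an odds ratio of 2.1 (1.70 to 2.59), and *Pde6c* the less frequent, with 0.542 (0.397 to 0.733).

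The shares fell mainly at 3 or more *Fabp7* UMIs. For *Tmem215* they were 42.8% at 0, 34.2% at 1 or 2, 20.5% at 3 to 9 and 6.48% at 10 or more UMIs. *Pgc* was in 56.0%, 58.7%, 38.4% and 21.3% of these cells. *Pcp2*, at 19.6% and 21.4% below 3 UMIs, was at 9.77% and 4.63% above. When cells with 3 or more *Fabp7* UMIs were set against cells with 0, all 7 intervals lay below 1, from 0.267 for *Pcp4* (0.142 to 0.464) to 0.574 for *Hsbp1l1* (0.405 to 0.798). The share of all genes with such an interval was not computed, so this count cannot be called particular to the 7 genes. Over the same ranges *Thrb* fell from 82.2% to 61.1% of cells, *Pdc* from 82.8% to 47.2% and *Cnga3* from 10.3% to 0 of 108 cells (exact upper limit 3.36%). Not all photoreceptor genes fell. *Rom1* rose from 4.92% to 19.4%, and *Gnat2* stood at 37.0%, 39.3%, 42.3% and 40.7%. In cells with any *Fabp7* UMI against none, *Rxrg* had an odds ratio of 1.27 (1.09 to 1.47) and *Unc119* of 1.62 (1.23 to 2.15). *Crx*, a factor of photoreceptor identity, stood at 796, 852, 1004 and 949 CPM.

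**Figure D4:**
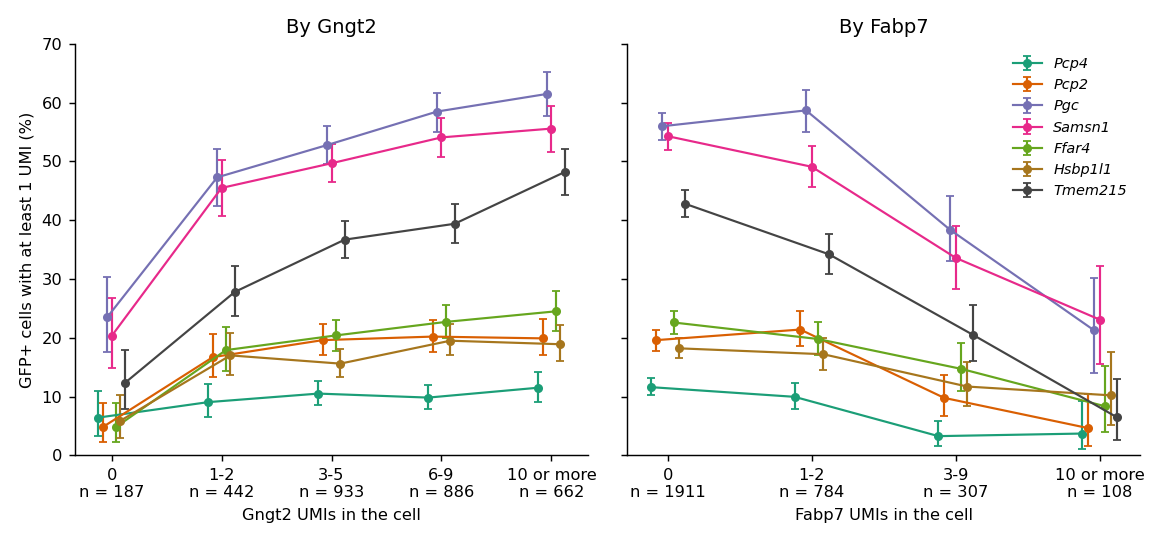
Percentage of thinned GFP+ cells with at least 1 UMI of each gene (y axis) by the number of *Gngt2* UMIs (left) or *Fabp7* UMIs (right) in the cell, with 95% exact binomial intervals and the number of cells in each range. *Tmem215* goes from 12.3% to 48.2% with *Gngt2* and from 42.8% to 6.48% with *Fabp7*, and *Pcp4* stays between 6.42% and 11.5% on the left.

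Cells were also divided by *Gngt2* and *Fabp7* together. *Tmem215* was in 46.3% of the 1011 cells above the *Gngt2* median without *Fabp7*, in 37.2% of the 537 above it with *Fabp7*, in 38.9% of the 900 at or below it without *Fabp7* and in 20.8% of the 662 at or below it with *Fabp7*. *Samsn1* showed the same order of the extremes, at 57.6% and 37.5%. *Pcp4* was in 11.6% of cells without *Fabp7* on both sides of the *Gngt2* median, and with *Fabp7* in 8.57% (6.34 to 11.3) above it and 6.95% (5.13 to 9.16) at or below it.

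The cells at the extremes of the set differed in other genes. The 399 cells with 0 of the 7 genes held 1188 CPM of *Fabp7*, against 184 CPM in the 1156 cells with 3 or more, a ratio of 6.44 (5.88 to 7.06). *Atoh7* was at 120 and 32.4 CPM. *Gngt2* was at 1190 and 2208 CPM, *Thrb* at 347 and 704 CPM, and *Pdc*, which binds transducin beta and gamma, at 353 and 911 CPM. *Neurod1* and *Prdm1*, factors of early photoreceptors, differed little, with ratios of 0.991 (0.936 to 1.05) and 0.980 (0.876 to 1.09). *Ccnd1*, a cyclin of dividing progenitors, was at 133 against 7.30 CPM. Of the 399 cells, 338 were photoreceptor-marker cells and 22 progenitor-marker cells, whereas 1155 of the 1156 were photoreceptor-marker cells. Among photoreceptor-marker cells alone the *Ccnd1* ratio was 1.27 (0.547 to 2.70), while that of *Fabp7* was 7.02 (6.41 to 7.71) and that of *Thrb* 0.565 (0.509 to 0.626).

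Markers of other cell types were compared between GFP+ cells with and without each of the 7 genes. The 7 progenitor markers together stood at 59.9 to 82.3 CPM in cells with a given gene and at 127 to 172 CPM in cells without it. The 7 immune markers, of which 4 were at 0, stood at 20.6 to 34.3 CPM with and 25.1 to 30.3 CPM without. For *Samsn1*, known from lymphocytes, the immune values were 31.0 and 26.0 CPM, with an interval of the ratio from 0.938 to 1.52. The immune interval lay above 1 for *Tmem215* (1.07 to 1.74) and below it for *Pcp2* (0.469 to 0.957). The 7 bipolar markers were higher with *Samsn1* (1.09 to 1.95), *Hsbp1l1* (1.07 to 2.1) and *Tmem215* (1.14 to 2.02), and the 7 rod markers with *Pgc* (1.09 to 1.46) and *Tmem215* (1.12 to 1.5) but lower with *Pcp4* (0.567 to 0.983). The 6 pigment epithelium markers were higher with *Samsn1* (1.18 to 2.55) and *Ffar4* (1.02 to 2.32), at no more than 19.0 CPM in any of these groups. The 8 ganglion cell markers together were lower with each of the 7 genes, at no more than 32.1 CPM with and 46.3 to 63.0 CPM without. Each value is a sum over a class, carried mainly by *Gngt1* and *Nrl* for rods, *C1qa* for immune cells and *Prkca* for bipolar cells. Single markers went both ways. Of 7 bipolar markers, 4 were higher with *Samsn1*, 4 with *Hsbp1l1* and 3 with *Tmem215*. Of 7 rod markers, 3 were higher with *Pgc*, 5 with *Tmem215* and 2 with *Pcp4*. Of 8 ganglion cell markers, 3 were higher with *Tmem215*. The part of these markers in the other results was not tested.

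Each of the 7 genes was described by the other genes that differed most between cells with and without it, 3 in each direction. Over 6410 genes with at least 200 UMIs in thinned GFP+ cells, the highest ratio of CPM in cells with *Pgc* over cells without it was that of *Pcp2*, at 2.07 (1.79 to 2.40). *Aipl1*, a chaperone of photoreceptor phosphodiesterase, was among the 3 highest for *Tmem215* at 2.00 (1.61 to 2.49) and for *Ffar4* at 1.76 (1.38 to 2.21). *Loxl2*, a lysyl oxidase relative, led for *Pcp4* at 2.51 (1.77 to 3.50), and *Unc13c*, a synaptic vesicle priming factor, for *Samsn1* at 2.24 (1.65 to 3.07). At the other end *Ccnd1* had the lowest ratio for 6 of the 7 genes, from 0.165 for *Pcp4* to 0.317 for *Ffar4*. These ratios cover all thinned GFP+ cells. Among photoreceptor-marker cells alone, *Ccnd1* in cells with 0 over cells with 3 or more of the 7 genes was at 1.27 (0.547 to 2.70). For *Pcp2* the lowest were *Slc7a5* at 0.389 (0.274 to 0.539), *Atf5* at 0.393 and *Phgdh* at 0.395, an amino acid transporter, a stress factor and an enzyme of serine synthesis.

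Cells with 2 or more UMI-positive genes of a list of amino acid and stress response genes (*Slc7a3*, *Slc7a5*, *Trib3*, *Chac1*, *Asns*, *Ddit3*, *Atf3*, *Sesn2*, *Cebpb* and *Atf5*) divided the set. In these 523 cells *Samsn1* was found more often, at 64.1% against 47.0% of the other 2587 cells, an odds ratio of 2.01 (1.65 to 2.46). *Ffar4* had an odds ratio of 1.52 (1.22 to 1.9) and *Tmem215* of 1.5 (1.24 to 1.83). *Pcp2* was found less often, at 11.9% against 19.9%, an odds ratio of 0.541 (0.401 to 0.720), and *Pgc* at 46.5% against 55.2%, with 0.704 (0.581 to 0.854). *Pcp4*, at 1.28 (0.938 to 1.73), and *Hsbp1l1*, at 0.784 (0.594 to 1.03), had intervals that include 1. In the 105 cells with *Opn1sw*, *Pgc* was in 76.2% of cells against 52.9% elsewhere, an odds ratio of 2.84 (1.78 to 4.68), and *Pcp2* in 33.3% against 18.0%, with 2.27 (1.45 to 3.50). *Ffar4*, *Hsbp1l1* and *Tmem215* had odds ratios of 1.89, 1.81 and 1.69 there, all with intervals above 1, whereas *Samsn1*, at 1.07 (0.710 to 1.61), and *Pcp4*, at 0.730 (0.304 to 1.52), had intervals that include 1. In the 272 cells with *Nrl*, the rod regulator, *Pcp4* was in 5.51% against 10.5% of cells, an odds ratio of 0.498 (0.271 to 0.851), and the intervals of the other 6 genes included 1.

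Among kept cells, the few GFP− cells with these genes held photoreceptor markers more often than GFP− cells as a whole. At full depth 66 of the 3389 GFP− cells held at least 1 of the 7 genes, and 41 of them (62.1%, 49.3 to 73.8) held 2 or more photoreceptor markers, compared with 143 of all 3389 (4.22%, 3.57 to 4.95). The share among cells with any of the 7 genes was 46.7% (43 of 92) over all barcodes and 54.5% (30 of 55) without possible doublets. Every possible doublet held 2 or more photoreceptor markers by definition. Leaving doublets out could therefore only lower the share, and the value is no check of it. All 17 kept cells with 2 or more of the 7 genes held 2 or more photoreceptor markers. *Pgc* was in 17 GFP− cells with 25 UMIs, and 16 of those cells held the markers. For *Samsn1* it was 16 of 18 cells, for *Ffar4* 7 of 8, for *Hsbp1l1* 6 of 8 and for *Pcp4* 4 of 6. *Tmem215* and *Pcp2* had lower shares, 12 of 23 cells (52.2%, 30.6 to 73.2) and 5 of 11 cells (45.5%, 16.7 to 76.6). Their intervals overlap those of the other genes, of which *Pgc* had the highest (71.3 to 99.9). Overlap alone does not decide whether shares differ, and a difference was not tested. Of the 23 *Tmem215* cells, 11 held no photoreceptor marker and 1 UMI of *Tmem215* each, and 9 of the 11 were progenitor-marker cells.

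Free RNA can leave a stray UMI in any droplet, so the share in GFP− progenitor-marker cells, which should lack cone transcripts, is given as a background of that library. Its source was not tested. At full depth (median 9344 UMIs) *Tmem215* was in 0.451% of these 1995 cells, *Pcp2* in 0.150%, *Pcp4* in 0.1%, and *Pgc*, *Ffar4* and *Hsbp1l1* in 0.0501% each. *Samsn1* was in 0 of 1995 cells, which allows a share of cells with a UMI of up to 0.150% by the floor of 3 counts and 0.185% by the exact interval. The GFP+ library had few cells of other classes. Of its 24 thinned progenitor-marker cells *Pcp2* and *Samsn1* were in 1 each (4.17%, 0.105 to 21.1), and of its 27 cells of no class *Pgc* and *Samsn1* were in 4 each (14.8%, 4.19 to 33.7). GFP− cells with photoreceptor markers held most of the genes more often than this and less often than GFP+ cells. Among thinned cells with photoreceptor markers, *Pgc* was in 15% of 60 GFP− cells (7.10 to 26.6) and 54.9% of 3032 GFP+ cells, and *Samsn1* in 16.7% (8.29 to 28.5) and 50.9%. *Hsbp1l1*, at 8.33% (2.76 to 18.4) and 17.4%, and *Pcp4*, at 3.33% (0.406 to 11.5) and 10.3%, had intervals that overlapped between the gates. In cells with 5 or more photoreceptor markers, *Thrb* was in 86.1% of both the 36 GFP− and the 2642 GFP+ cells, *Fabp7* in 66.7% (49.0 to 81.4) and 37.0%, and *Gngt2* in 75% (57.8 to 87.9) and 98.0%. *Thrb* and *Gngt2* are themselves among the photoreceptor markers, so their high shares follow in part from that selection. *Fabp7* is not among them. As the 7 genes were chosen for this gate contrast, these values carry no test.

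Relatives and partners of the 7 genes, 33 genes in all, were also compared between the gates. The 7 genes were chosen for high ratios, so a gap between them and this list follows from that choice. Of the 23 with at least 10 UMIs, 6 were 2-fold or more higher in GFP+ cells and 5 lower, against 23.0% and 16.5% of the 15236 genes, with a median ratio of 1.1 against 1.23. The highest ratio was 3.18. *Pcp4l1*, the closest relative of *Pcp4*, stood at 0.516 CPM in the GFP+ gate against 6.18 CPM in the other, a ratio of 0.0835 (0.0355 to 0.168). *Gap43*, a gene of growing axons, had a ratio of 0.0581 (0.0518 to 0.0648). Among G protein genes that *Pcp2* protein can meet, *Gnai1* had a ratio of 3.18 (2.78 to 3.63) and *Gnao1* of 2.69 (2.44 to 2.97), whereas *Gnai2* had 0.356 (0.344 to 0.369). Aspartic proteases related to *Pgc* were led by *Bace1* at 2.75 (2.42 to 3.14) and *Ctsd* at 2.58 (2.43 to 2.73), while *Pga5* and *Ren1* had no UMI in either gate. The other free fatty acid receptors, *Ffar1*, *Ffar2* and *Ffar3*, had at most 1 UMI in GFP+ cells, and *Hsbp1* was near level at 1.08 (1.05 to 1.11). *Sash1*, a relative of *Samsn1*, had 1.39 (1.17 to 1.65).

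Genome neighbours were mostly near level. Of the 5 nearest genes on each side of each of the 7, 70 in all, 51 had at least 10 UMIs, their median ratio was 1.39, and 3 were 20-fold or more higher in GFP+ cells, where 1.84% of all 15236 genes were. All 3 lay beside *Ffar4* (chromosome 19, 38097079 to 38114263, plus strand). *Rbp4*, a retinol carrier, lay 2.36 kb away on the minus strand and had 350 against 3.82 CPM, a ratio of 91.6 (76.2 to 111). *Pde6c* was 18.5 kb away with its ratio of 798, and *Lgi1* 150 kb away with 35.9 (19.1 to 76.1). On the other side of *Ffar4*, *Cep55* and *Cyp26a1*, genes of cell division and retinoic acid breakdown, had ratios of 0.0545 (0.0296 to 0.0922) and 0.0253 (0.0147 to 0.0406). In single GFP+ cells *Rbp4* was in 64.0% of cells with *Ffar4* and 47.5% of cells without it, an odds ratio of 1.96 (1.63 to 2.35), and the odds ratios of *Pde6c* and *Lgi1* with *Ffar4* were 1.55 (1.13 to 2.09) and 1.93 (1.24 to 2.94). *Tfeb*, 2.56 kb from *Pgc* on the same strand, had a ratio of 18.4 (11.7 to 30.4). *Pcp4* overlaps *Igsf5* on its strand in the GENCODE annotation, and *Igsf5* had 0 UMIs in GFP+ cells. The neighbours of *Hsbp1l1*, on chromosome 18, and of *Tmem215*, on chromosome 4, all had ratios under 20.

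**Figure D5:**
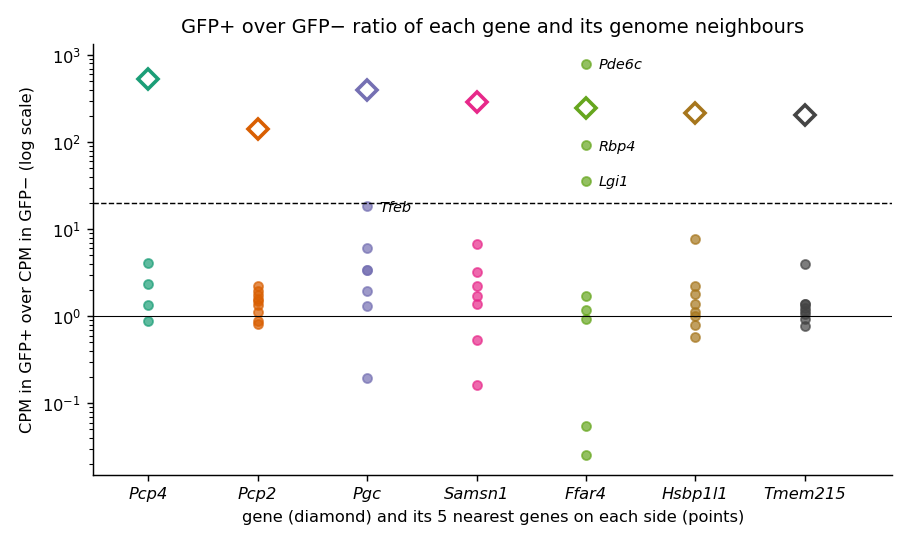
GFP+ over GFP− CPM ratio (log scale) for each of the 7 genes (diamonds) and for those of its 5 nearest genes on each side that had at least 10 UMIs (points); the dashed line is a ratio of 20 and the solid line a ratio of 1. *Pde6c*, *Rbp4* and *Lgi1* beside *Ffar4* lie above 20 and *Tfeb* beside *Pgc* lies at 18.4.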

How the data were processed

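GFP+ and GFP− cells of the pooled retinas gave 1 library each. According to the submitters' processing notes, the authors used Cell Ranger 2.1.1 with mm10 (GRCm38), and the deposited values are raw UMI counts of each gene in each barcode that passed cell calling. These counts were summed over kept cells and scaled to 1000000 UMIs (CPM). Summed CPM carries exact Poisson intervals, shares exact Clopper-Pearson intervals, ratios exact conditional binomial intervals and odds ratios exact conditional intervals. No p-value was taken from cells. Doublets were not called. As an alternative, cells with 2 or more photoreceptor markers and also 2 or more progenitor, ganglion or amacrine/horizontal markers were left out as possible doublets. A marker class needed 2 or more markers and more than any other class. The intervals and the thinning were tested on simulated data. Sums and intervals were computed in Python 3.11.15 (scipy 1.17.1, pandas 2.3.3, numpy 2.4.6), and TMM factors in edgeR 4.0.16.

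The 7 genes and the lists were chosen with earlier results of these data known. The genes named are those 7, *Gngt2* and *Fabp7*, the listed relatives, neighbours, photoreceptor genes and markers, the genes ranked beside the 7, and the 3 with the highest and lowest ratio for each. Alternatives were all barcodes, no possible doublets, TMM factors, means of per-cell values, other thinning depths and draws, and other thresholds for *Gngt2*, *Fabp7* and the markers. The restriction to photoreceptor-marker cells, the co-detection of neighbours and the cells rich in *Pcp4* were chosen after seeing the data. Coordinates and promoters come from RefSeq, GRCm38.p6, and the promoters of 6 of the 7 genes were used here.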

Additional observations from a re-analysis of the deposited data

How the results depend on the processing

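With 1 library per gate, depth and counting set the limits, and a share rests on how many UMIs a cell keeps. The GFP+ over GFP− ratio of each of the 7 genes stayed above 70 in each setting tried (all barcodes, possible doublets left out, TMM factors, means of per-cell values, thinned cells). It left its counting interval without possible doublets for *Pgc* (613) and *Samsn1* (521), with means of per-cell values for *Pcp2* (70.7), *Pgc* (198), *Samsn1* (167) and *Tmem215* (138), and in thinned cells for *Samsn1* (177) and *Hsbp1l1* (93.7). The possible doublets left out of the GFP− library all held photoreceptor markers, and the ratio of each of the 7 genes was higher without possible doublets. As the genes were chosen for this ratio, its size in these settings is a description only. Without thinning the shares were 22.4% for *Pcp2*, 60.5% for *Pgc*, 58.4% for *Samsn1*, 24.5% for *Ffar4*, 20.4% for *Hsbp1l1* and 43.9% for *Tmem215*. At 2000 UMIs they were 7.89% for *Pcp4*, 15.2% for *Pcp2*, 43.6% for *Pgc*, 37.9% for *Samsn1*, 13.7% for *Ffar4*, 11.5% for *Hsbp1l1* and 29.4% for *Tmem215*. The pairs with an interval above 1 numbered 11 at 2000 UMIs and 13 to 17 in the other settings. Of GFP− cells with any of the 7 genes, 46.7% held photoreceptor markers over all barcodes, 54.5% without possible doublets and 81.8% after thinning to 3200 UMIs. The doublet setting could only lower this share, since it left out cells with photoreceptor markers. The genes with an interval above 1 by *Gngt2* numbered 4 to 6, and those with an interval below 1 by *Fabp7* 4 to 7. For neither count was the share of all genes with such an interval computed. Among pairs whose interval included 1 at 3200 UMIs, *Pcp4* and *Hsbp1l1* went from 0.712 to 1.01 and *Pcp4* and *Ffar4* from 1.15 to 0.961 over all barcodes. No odds ratio with an interval off 1 at 3200 UMIs changed direction. No paired analysis was possible because each gate has 1 library and the labels give no replicate numbers.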

Other observations

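The cells rich in *Pcp4* were described after its uneven counts were seen. In the 81 thinned GFP+ cells with 5 or more *Pcp4* UMIs, set against the 2797 cells with 0, *Gngt2* stood at 1933 and 1934 CPM, *Crx* at 837 and 835 CPM and *Otx2* at 1535 and 1496 CPM. *Tmem215* was higher in them, at 340 against 191 CPM, a ratio of 1.78 (1.42 to 2.2), and *Fabp7* lower, at 212 against 454 CPM, a ratio of 0.467 (0.351 to 0.609). The highest ratio among genes with at least 200 UMIs was that of *Loxl2*, with 27 UMIs in the 81 cells and 164 in the 2797, a ratio of 5.68 (3.64 to 8.58). *Vax2*, a regulator of the ventral retina, had 1 UMI in the 81 cells and 310 in the 2797, a ratio of 0.111 (0.00281 to 0.625). The other genes of retinal position that were compared had intervals that include 1. The ventral gene *Ephb2* was at 0.799 (0.257 to 1.89). The dorsal genes were at 0.421 (0.0105 to 2.41) for *Tbx3*, 3.05 (0.599 to 9.69) for *Tbx5* and 2.50 (0.891 to 5.67) for *Efnb2*. As these genes were picked from many, the values are descriptions and carry no test.

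Groups of GFP+ cells by position and cell cycle were compared as well. In the 577 cells with a UMI of the dorsal genes *Tbx5*, *Tbx3*, *Tbx2*, *Efnb2* or *Aldh1a1*, the odds ratios of the 7 genes ran from 0.868 (*Samsn1*) to 1.18 (*Pgc*), and each interval included 1. In the 518 cells with a UMI of the ventral genes *Vax2*, *Vax1*, *Ephb2*, *Aldh1a3* or *Bmpr1b*, *Hsbp1l1* was in 12.7% against 17.9% of cells, an odds ratio of 0.670 (0.5 to 0.887), and the intervals of the other 6 genes included 1. Only 16 cells held 2 or more of 8 mitotic genes. *Pgc* was in 2 of those 16 and *Samsn1* and *Tmem215* in 1 each, with odds ratios of 0.122 (0.0134 to 0.533), 0.0665 (0.00158 to 0.433) and 0.112 (0.00266 to 0.730). *Pcp2* was in 2, *Ffar4* in 1 and *Pcp4* and *Hsbp1l1* in 0 of the 16, and their intervals included 1.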
